A study of Homo sapiens with 12 samples.

Results

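Focal adhesions are the sites at which a cell grips the matrix around it. Integrins in the membrane bind matrix proteins on the outside, and on the inside a dense plaque of adaptor proteins ties the integrin tails to the actin cytoskeleton and carries the signals of attachment. Talin binds and activates the integrins, vinculin strengthens the link from talin to actin under load, alpha-actinins crosslink the actin filaments, the ILK-parvin arm forms another bridge, FAK and paxillin carry the signals, and zyxin and tensin join plaques under tension or as they mature. The genes of 10 such proteins are described here: TLN1, VCL, ACTN1, ACTN4, ILK, PARVA, PTK2, PXN, ZYX and TNS1. They were chosen by symbol and matched through the Ensembl gene identifier, and 10 of 10 were found among the 58721 genes of the count table.

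The RNA came from EW8 and TC71, established human cell lines of Ewing sarcoma, a bone and soft tissue tumour driven by a fusion of EWSR1 with an ETS gene. Every library, the vehicle libraries included, came from cells carrying a doxycycline-inducible cassette for c-Jun and c-Fos, the subunits of the transcription factor AP-1 in a single reading frame, together with the Tet-On 3G transactivator under an EF1alpha promoter; the cells were selected with geneticin and puromycin. The 4 groups were EW8 with vehicle (DMSO; genotype label WT), EW8 with 2000 ng/ml doxycycline (genotype label AP1_overexpression), and the same pair in TC71, each for 72 h and each with 3 libraries. No group had doxycycline without the cassette, so the drug and the induced factor cannot be told apart, and nothing in the labels says whether the 3 libraries of a group were separate cultures, so the p-values measure the spread between libraries, which may be technical.

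The libraries held 42860665 to 60853649 counts, and 21013 genes passed the filter on low counts and were tested. All 10 plaque genes passed it. JUN lay at 18.04 to 25.4 CPM (counts per 1000000 counts of a library, scaled by TMM) in the 6 vehicle libraries and at 422 to 814 CPM in the 6 doxycycline libraries, and FOS at 11.2 to 37.6 and at 999 to 1686 CPM, so the treatment labels and the induced genes matched; the counts do not separate cassette from endogenous transcripts. The log2 fold change of FOS was 4.87 in EW8 and 7.08 in TC71. All 8 Ewing sarcoma markers were above the floor of 6 counts in each group. With doxycycline 6 were called lower and 1 higher in EW8 at an adjusted p under 0.05, and 5 lower and 2 higher in TC71. Over all tested genes 22% were called lower and 21.9% higher in EW8, and 20.4% and 25.1% in TC71. The median log2 fold change of the 8 markers was -0.62 in EW8 and -0.33 in TC71. Their sum went from 2930 to 2990 CPM to 2720 to 2790 CPM in EW8. In TC71 it went from 2580 to 2830 CPM to 2380 to 2460 CPM. Most marker sums of other cell types moved as well. The 5 epithelial markers summed to 10.7 to 11 CPM in EW8 with vehicle and 95.3 to 106 with doxycycline. In TC71 they summed to 177 to 216 and 288 to 308 CPM, and CDH1 stayed at or under the floor there. The 8 fibroblast markers summed to 166 to 180 and then 141 to 150 CPM in EW8. In TC71 they summed to 270 to 310 and then 284 to 297 CPM, the latter range inside the former. Single fibroblast markers moved both ways under these sums. In EW8 1 was called higher and 4 lower, and in TC71 2 higher and 4 lower. The 5 leukocyte markers summed to 65.3 to 73.9 and 77.3 to 82.8 CPM in EW8, with CD3E at or under the floor. In TC71 they summed to 0.369 to 0.745 and then 1.31 to 1.82 CPM, with 3 at or under the floor. The part of these markers in the results on the plaque genes was not tested. In RNA from whole cultures, a change in every cell and a change in the share of cells cannot be told apart. The first vehicle library of TC71 stood apart from its replicates, with a chi-square per gene of 56.1 and 58.9 against them. Every other pair of replicates gave 5.24 to 10.2. The groups shared an estimate of the spread, so this library also enters the p-values of EW8. Some results are also given without this library, and values given only with it may move as well.

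With doxycycline, 9 of the 10 plaque genes were higher in EW8 at an adjusted p under 0.05 and 0 were lower, where 21.9% of all tested genes were called higher and 22% lower. In TC71 the counts were also 9 higher and 0 lower, with 25.1% of all genes called higher and 20.4% lower. Well-measured genes are called more readily, and among the 10094 genes with a mean of at least 10 CPM the shares were 27% and 34%. With the further limit of a log2 fold change over 1, PXN and ZYX were called in EW8 (background 11.4%), and PXN, ZYX and ACTN1 in TC71 (background 12.3%). The median log2 fold change of the 10 genes was 0.73 in EW8 and 0.91 in TC71, against -0.031 and 0 over all tested genes. Under the 21 alternatives (other scalings, filters, models and left-out libraries), the EW8 count stayed between 7 and 9 and the TC71 count at 9. The gene that did not pass was ILK in both lines. The other 9 genes showed no overlap, their lowest doxycycline library exceeding the highest vehicle library of the line, as did 26.9% of all tested genes in EW8 and 27.6% in TC71. Summed over the 10 genes, the plaque transcripts took 2265 to 2410 CPM in EW8 with vehicle and 3784 to 4108 CPM with doxycycline, and 1508 to 1618 and 3442 to 3832 CPM in TC71.

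**Figure D1:**
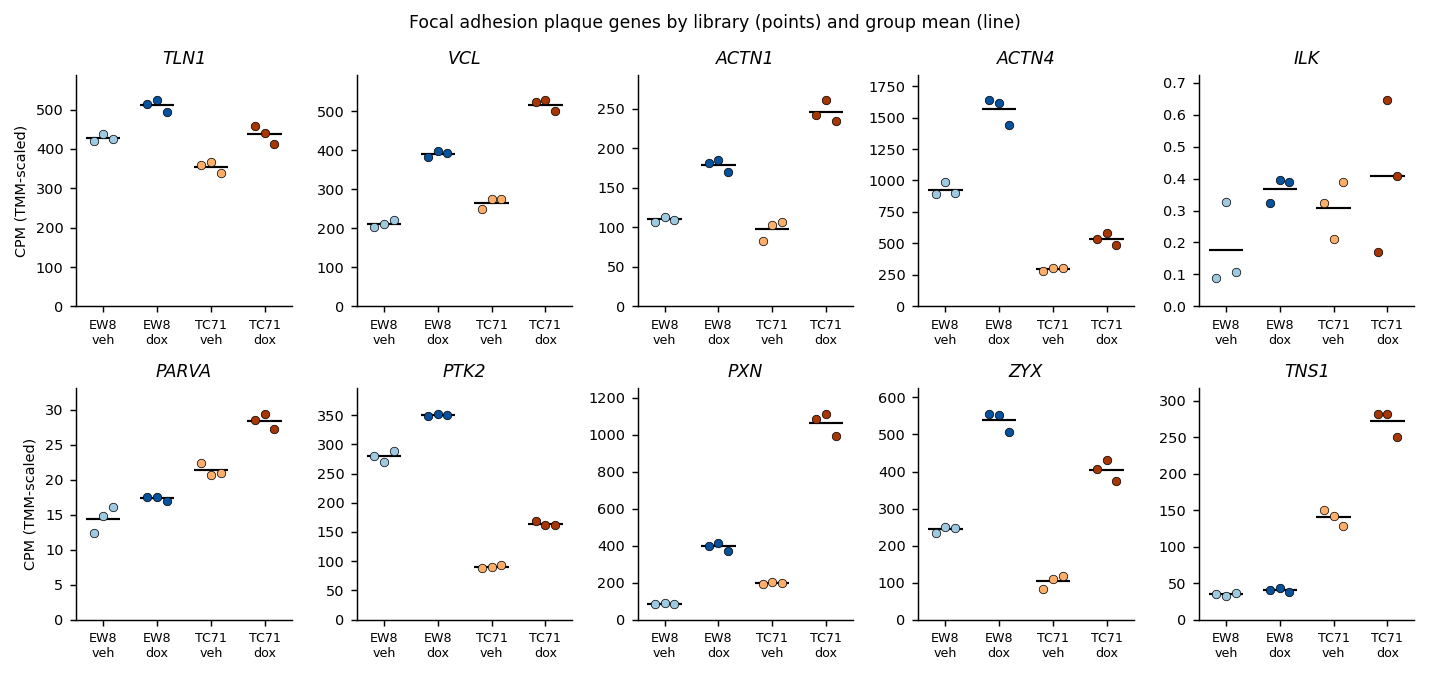
Normalised counts in CPM (y axis, linear from 0, a scale for each gene) in each library (points) of the 4 groups (x axis; veh, vehicle; dox, doxycycline), with the mean of 3 libraries as a line. In 9 genes all 3 doxycycline libraries of a line sit above its 3 vehicle libraries; in ILK, at 0.65 CPM or less, they overlap.

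The scaffold PXN (paxillin, ENSG00000089159, chromosome 12, 120210439 to 120265771, minus strand, hg38) responded most of the 10 in both lines. Paxillin is a LIM-domain adaptor that docks FAK and vinculin at the plaque. In EW8 it lay at 84.1, 89.4 and 85.1 CPM with vehicle and at 399, 415 and 374 CPM with doxycycline. In TC71 it lay at 192, 206 and 198 CPM with vehicle and at 1085, 1115 and 993 CPM with doxycycline. Neither line's groups overlapped, and the vehicle level of TC71 lay above that of EW8. The change was 4.59-fold in EW8 (log2 2.20 ± 0.06 SE, n = 3 against 3, adjusted p = 1.51e-15 by edgeR's quasi-likelihood test) and 5.35-fold in TC71 (log2 2.42 ± 0.06 SE, adjusted p = 2.61e-16), at percentile 92.9 and 93 of the log2 fold changes of all tested genes. The difference between the lines, 0.22 (95% CI 0.053 to 0.39), missed the threshold with an adjusted p of 0.0611. It was 0.069 without the vehicle library of TC71 that stood apart, and it passed with the replicate block (adjusted p = 0.0259, edgeR) and without the third doxycycline library of TC71 (0.27, adjusted p = 0.0292, edgeR). Of the PXN exon sequence 12.4% is shared with other genes, mainly 918 bp with PXN-AS1 on the opposite strand; reads there were left out of both genes' counts, and PXN-AS1 held 89 to 355 counts.

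Its partner PTK2 (ENSG00000169398, chromosome 8, 140657900 to 141002216, minus strand) encodes focal adhesion kinase, FAK, the tyrosine kinase that is activated when integrins engage. EW8 gave 280, 269 and 289 CPM with vehicle and 349, 353 and 351 CPM with doxycycline. TC71 gave 88.9, 89.4 and 93.5 CPM and then 169, 162 and 161 CPM, so that its doxycycline level was still under the vehicle level of EW8. The log2 change was 0.33 ± 0.05 in EW8 (adjusted p = 2.20e-05, edgeR) and 0.86 ± 0.05 in TC71 (adjusted p = 6.46e-11, edgeR), and the response of TC71 exceeded that of EW8 by 0.53 (95% CI 0.39 to 0.68, adjusted p = 1.88e-05, edgeR). No exon base of PTK2 is shared with another gene.

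ZYX (zyxin, ENSG00000159840, chromosome 7, 143381080 to 143391111, plus strand) encodes a LIM protein that gathers at plaques and stress fibres under tension and recruits actin-assembly factors. In EW8 it rose from 233, 251 and 247 CPM to 556, 553 and 508 CPM, 2.21-fold (log2 1.15 ± 0.10, adjusted p = 1.56e-08, edgeR). In TC71 it rose from 81.9, 110 and 119 CPM to 406, 431 and 375 CPM, 3.90-fold (log2 1.96 ± 0.10, adjusted p = 8.73e-12, edgeR). TC71 started far under EW8, and after doxycycline its libraries still lay below those of EW8, closer than before. The response was larger in TC71 by 0.82 (95% CI 0.53 to 1.10, adjusted p = 0.000239, edgeR). The lowest value, 81.9 CPM, belonged to the vehicle library that stood apart; without it the TC71 change was 1.74 and the difference between the lines 0.55 (adjusted p = 4.86e-06, edgeR).

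TNS1 (tensin 1, ENSG00000079308, chromosome 2, 217799588 to 218033982, minus strand) encodes a component of the fibrillar adhesions that mature from plaques. It differed between the lines more than any other of the 10. EW8 held 34.5, 33.1 and 36.3 CPM with vehicle and 40.4, 44.03 and 37.4 CPM with doxycycline, where the lowest doxycycline library lay only just above the highest vehicle library. TC71 held 150, 142 and 128 CPM and then 282, 282 and 251 CPM. The log2 change of 0.23 ± 0.08 in EW8 (adjusted p = 0.0192, edgeR) was lost with scaling by library size alone (0.17, adjusted p = 0.0724) and without the first or the second vehicle library of EW8 (adjusted p = 0.0515 and 0.0781). Without the vehicle library of TC71 that stood apart, the EW8 change was 0.28 (adjusted p = 0.00112, edgeR). In TC71 the change was 0.96 ± 0.07 (adjusted p = 3.43e-09, edgeR), and the lines' responses differed by 0.73 (95% CI 0.51 to 0.95, adjusted p = 5.86e-05, edgeR).

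The alpha-actinins are antiparallel dimers that bundle actin filaments and bind vinculin and integrin tails. ACTN4 (ENSG00000130402, chromosome 19, 38647649 to 38731583, plus strand) had the highest level of the 10 in EW8. It lay there at 889, 990 and 902 CPM with vehicle and at 1637, 1618 and 1440 CPM with doxycycline, and in TC71 at 283, 305 and 304 and then 537, 583 and 487 CPM. The lines responded by log2 0.76 ± 0.07 (adjusted p = 3.79e-08, edgeR) and 0.85 ± 0.07 (adjusted p = 6.70e-09, edgeR), with a difference of 0.093 whose 95% interval ran from -0.11 to 0.29. Its sister gene ACTN1 (ENSG00000072110, chromosome 14, 68874143 to 68979440, minus strand) lay at 107, 114 and 110 CPM in EW8 with vehicle and 182, 185 and 170 CPM with doxycycline, and at 82.2, 103 and 107 and then 243, 261 and 234 CPM in TC71. After doxycycline the TC71 libraries lay above those of EW8. Its change was log2 0.70 ± 0.08 in EW8 (adjusted p = 7.86e-07, edgeR) and 1.34 ± 0.08 in TC71 (adjusted p = 1.03e-10, edgeR), a difference of 0.64 (95% CI 0.40 to 0.87, adjusted p = 0.00042, edgeR). Without the vehicle library that stood apart, which held the 82.2 CPM, that difference was 0.40 (adjusted p = 0.000269, edgeR). Per kb of exon, ACTN4 stood over ACTN1 by a ratio of 14.6 ± 0.46 in EW8 with vehicle and 15.2 ± 0.47 with doxycycline, and by 5.37 ± 0.56 and 3.79 ± 0.15 in TC71 (SD, n = 3 each). The size of this ratio depends on the annotated exon lengths, 6098 bp for ACTN4 and 10626 bp for ACTN1.

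TLN1 (talin 1, ENSG00000137076, chromosome 9, 35696948 to 35732395, minus strand) and VCL (vinculin, ENSG00000035403, chromosome 10, 73995193 to 74121363, plus strand) form the core link from integrin to actin. VCL went from 205, 210 and 221 CPM to 384, 399 and 394 CPM in EW8, and from 250, 274 and 275 CPM to 523, 529 and 501 CPM in TC71. That is log2 0.89 ± 0.05 (1.85-fold, adjusted p = 1.16e-10, edgeR) and 0.96 ± 0.05 (1.94-fold, adjusted p = 3.03e-11, edgeR), just inside the limit of 1. Without the vehicle library that stood apart the VCL change in TC71 was 0.83. TLN1 went from 420, 438 and 426 CPM to 515, 524 and 494 CPM in EW8, and from 358, 366 and 339 CPM to 459, 440 and 412 CPM in TC71. Its changes, log2 0.26 ± 0.05 (1.19-fold, adjusted p = 0.000552, edgeR) and 0.30 ± 0.05 (1.23-fold, adjusted p = 9.67e-05, edgeR), passed the test in both lines but were among the smallest of the 10. No difference between the responses of the lines passed for either gene, with 95% intervals of -0.11 to 0.20 for TLN1 and -0.083 to 0.23 for VCL. Of VCL's exons 11.1% are shared with AP3M1 on the other strand.

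ILK is a pseudokinase that sits with PINCH and parvin at the integrin tail, and PARVA (alpha-parvin) carries the actin-binding domains of that complex. PARVA (ENSG00000197702, chromosome 11, 12377185 to 12535356, plus strand) was low, at 12.5, 14.8 and 16.1 CPM in EW8 with vehicle and 17.5, 17.6 and 16.9 CPM with doxycycline, and at 22.4, 20.7 and 20.9 and then 28.5, 29.4 and 27.2 CPM in TC71. The TC71 change was log2 0.41 ± 0.10 (adjusted p = 0.00184, edgeR). The EW8 change of 0.26 ± 0.10 only just passed (adjusted p = 0.0396, edgeR) and failed under 7 of 21 alternatives. Without the first vehicle library of EW8 it was 0.17 (adjusted p = 0.213, edgeR). Without the vehicle library of TC71 that stood apart, which enters the shared spread, the EW8 change was 0.31 (adjusted p = 0.00954, edgeR). ILK (ENSG00000166333, chromosome 11, 6603708 to 6610874, plus strand) could not be measured from this table. Its libraries held 4, 15 and 6 counts in EW8 with vehicle, 18, 20 and 17 with doxycycline, 17, 13 and 20 in TC71 with vehicle and 7, 27 and 18 with doxycycline. Other genes cover 2736 of its 3484 exon bases, 78.5%, of which 2374 lie under TAF10 on the opposite strand, and the counter dropped reads that touched more than 1 gene; TAF10 itself held only 38 to 73 counts. The fitted log2 changes of ILK were 1.07 ± 0.67 in EW8 (adjusted p = 0.218, edgeR) and 0.41 ± 0.64 in TC71 (adjusted p = 0.65, edgeR). Their 95% intervals ran from -0.34 to 2.48 and from -0.93 to 1.76. A change of the size seen in VCL was therefore not detectable with so few counted reads.

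**Figure D2:**
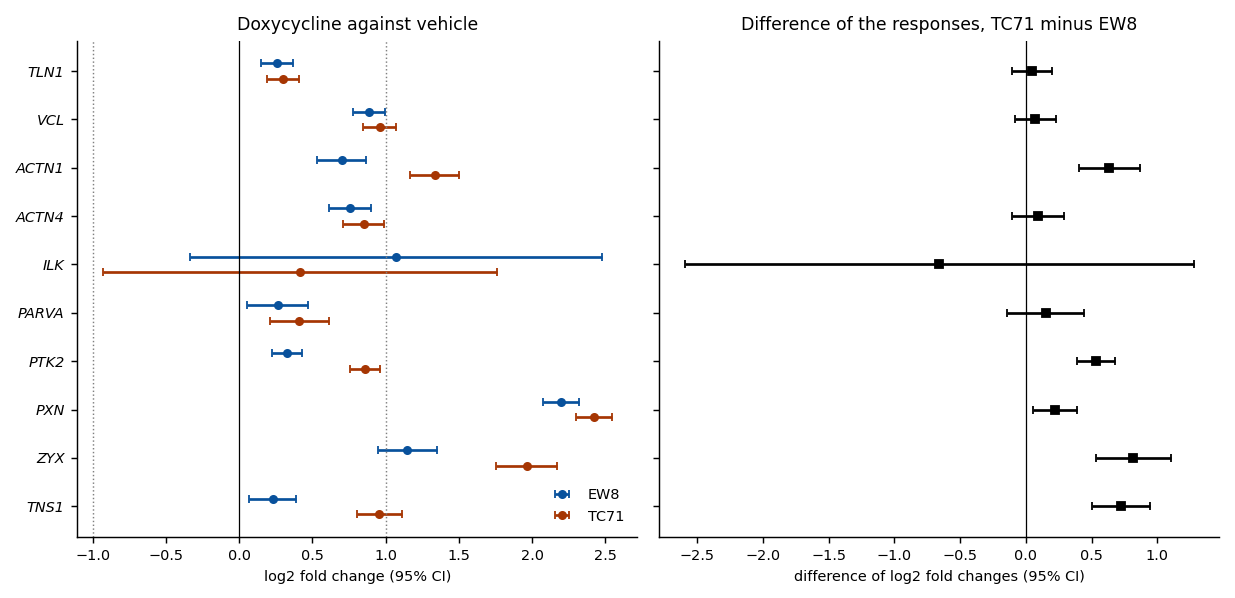
Left, log2 fold change of each gene with doxycycline against vehicle (x axis) with its 95% confidence interval in EW8 (blue) and TC71 (brown), dotted lines at -1 and 1; right, the difference of the responses, TC71 minus EW8, with its interval. PXN lies beyond 2 in both lines, the intervals of TNS1, PTK2, ACTN1 and ZYX lie above 0 on the right, and ILK spans 0 throughout.

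Tested as an interaction, 4 of the 10 genes responded more in TC71 than in EW8 (background 12.2% of all genes), and 0 responded less (background 7.07%). They were ZYX, TNS1, ACTN1 and PTK2, with differences of 0.82, 0.73, 0.64 and 0.53, and all 4 passed under each of the 20 alternatives run on them. No difference reached 1. JUN and FOS also rose further in TC71, by 0.73 (adjusted p = 0.00217, edgeR) and 2.21 (adjusted p = 6.41e-12, edgeR), and the part of this in the larger responses was not tested. Of these 2 induced genes, 1 was called lower in TC71 than in EW8 under vehicle, with a median log2 difference of -0.86. With doxycycline 2 were called higher in TC71, with a median of only 0.61. Their larger rise in TC71 therefore includes a difference of the vehicle levels. The responses of the plaque genes share their vehicle libraries with the line difference below. In vehicle, 4 of the genes were higher in TC71 (background 28.2%) and 4 lower (background 33.5%). TNS1 was higher by log2 2.02, PXN by 1.21, PARVA by 0.56 and VCL by 0.33, while ACTN4 lay at -1.64, PTK2 at -1.63, ZYX at -1.23 and TLN1 at -0.27. ACTN1 did not pass at -0.18 (adjusted p = 0.0596, edgeR), and without the vehicle library that stood apart its value was 0.042. With doxycycline, 5 were higher in TC71 (background 30.2%), ACTN1 now among them at 0.46 (adjusted p = 5.16e-05, edgeR), and 4 lower (background 32.3%). TNS1 lay at 2.74 and PXN at 1.43 there, and ACTN4 at -1.55, PTK2 at -1.09, ZYX at -0.42 and TLN1 at -0.23.

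Divided by exon length, to set genes roughly against each other, the order of the levels differed by line and by treatment. The length covers every annotated exon of a gene, from 3482 bp for ZYX to 13742 bp for PTK2 among those ranked first. Which transcripts the cells used was not measured, so orders, shares and ratios between genes depend on the annotation. A change of 1 gene with treatment does not. In EW8 with vehicle ACTN4 led at 152 ± 9.04 CPM per kb (SD, n = 3), before ZYX at 69.9 ± 2.72, TLN1 at 42.5 ± 0.94 and VCL at 21.2 ± 0.86. VCL overlapped the next gene, PTK2, at 20.3 ± 0.73, and PXN came only after them at 11.6 ± 0.37, with ACTN1 at 10.4 ± 0.30, TNS1 at 2.13 ± 0.099 and PARVA at 1.12 ± 0.14 behind it. With doxycycline ACTN4, at 257 ± 17.9, and ZYX, at 155 ± 7.78, kept the top places, and PXN followed at 53.1 ± 2.75, overlapping TLN1 at 50.7 ± 1.54. In TC71 with vehicle the top was flatter. ACTN4 lay at 48.8 ± 2.02 CPM per kb, and TLN1 at 35.2 ± 1.38, ZYX at 29.7 ± 5.50, VCL at 26.7 ± 1.43 and PXN at 26.6 ± 0.97 overlapped each with the next. With doxycycline PXN led at 143 ± 8.48, ZYX followed at 116 ± 8.02, and then ACTN4 at 87.9 ± 7.86, with no overlap among them. PXN thus made up 3.49% of the summed plaque level per kb in EW8 with vehicle, 8.84% with doxycycline, and 13.8% and 28.8% in TC71. Against TLN1, its ratio per kb went from 0.272 ± 0.0029 to 1.05 ± 0.023 in EW8 and from 0.758 ± 0.033 to 3.29 ± 0.12 in TC71. Counting only exon bases that no other gene shares raised ACTN4, PXN and VCL; PXN then no longer overlapped TLN1 in EW8 with doxycycline, and ZYX at 119 and ACTN4 at 102 CPM per kb overlapped in TC71 with doxycycline.

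**Figure D3:**
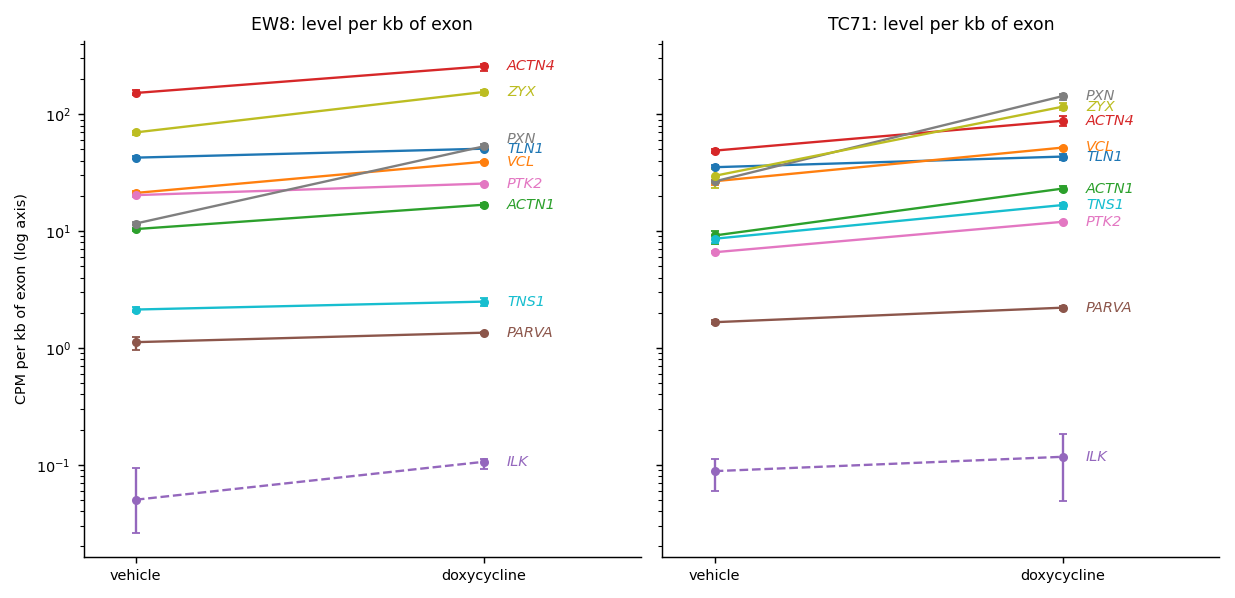
Mean level in CPM per kb of exon (y axis, log axis) with vehicle and with doxycycline in EW8 (left) and TC71 (right), bars from the lowest to the highest of 3 libraries and a dashed line for ILK, which was undercounted. PXN crosses TLN1, VCL and PTK2 in EW8 and reaches the top in TC71, from 26.6 to 143 CPM per kb.

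Promoter sequence was looked up because 9 of the 10 members were higher in each line with doxycycline, which induced a DNA-binding factor. RefSeq windows of 300 bases on GRCh38.p14, from 250 before to 50 after a transcription start, were at hand for 8 of the 10 genes, 17 windows in all; those of PARVA and PTK2 were not analysed here. The AP-1-like pattern TGANTCA, where N is any base, was read on both strands. It was present in 1 of the 17 windows, as TGAATCA, and in 7.71% of the 35116 windows of all genes. The share with C or G as the middle base was not counted. The related TGACGTCA was in 0 of the 17 and 1.85% of all, and the CArG box bound by SRF in 1 of 17 and 1.29% of all. The sequences are given 5′ to 3′ on the gene's strand, from position -250 to -51. That of ACTN1 runs to -89, where an annotated exon begins. First is the window of ACTN4, with its TGAATCA match in capitals (chr19:38647399-38647598, plus strand). Next is the window at an alternative start of ACTN1, with its CArG box in capitals (chr14:68977655-68977816, minus strand). Last is the main window of PXN, the gene that changed most, which held none of the 3 motifs (chr12:120265781-120265980, minus strand).
ACTN4: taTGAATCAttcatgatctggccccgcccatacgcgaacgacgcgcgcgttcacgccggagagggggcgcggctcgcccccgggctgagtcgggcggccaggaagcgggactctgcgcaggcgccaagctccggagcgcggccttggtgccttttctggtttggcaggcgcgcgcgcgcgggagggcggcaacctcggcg
ACTN1: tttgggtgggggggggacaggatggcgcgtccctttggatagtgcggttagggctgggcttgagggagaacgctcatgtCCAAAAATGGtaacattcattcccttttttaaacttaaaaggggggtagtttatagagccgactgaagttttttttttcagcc
PXN: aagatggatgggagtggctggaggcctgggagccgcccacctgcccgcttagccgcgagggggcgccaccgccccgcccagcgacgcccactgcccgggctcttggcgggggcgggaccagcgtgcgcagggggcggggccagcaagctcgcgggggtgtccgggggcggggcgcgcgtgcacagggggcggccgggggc
The match in ACTN4 spans -248 to -242 and the match in ACTN1 -171 to -162 from the start. These are matches of letters in a short window, and sites elsewhere in the genes were not looked for.

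The paralogs of the plaque genes were divided. Of 19, 16 were tested; 12 were higher and 2 lower in EW8, 6 with the fold limit, and 12 higher and 2 lower in TC71, 7 with the fold limit, with list medians of 0.66 and 0.96. Over all tested genes 21.9% were called higher, 22% lower and 11.4% higher with the fold limit in EW8, and 25.1%, 20.4% and 12.3% in TC71; the counts of the lists that follow stand against these shares too. The paxillin family rose with PXN. LPXN (leupaxin), at 1.22 to 1.74 CPM in EW8 with vehicle, reached 55.8 to 58.1 CPM with doxycycline (log2 5.32 ± 0.16, adjusted p = 4.92e-15, edgeR), but went only from 1.36 to 2.00 to 3.41 to 4.05 CPM in TC71 (log2 1.21 ± 0.16, adjusted p = 3.55e-06, edgeR). TGFB1I1 (Hic-5) rose by 1.49 ± 0.14 in EW8 (adjusted p = 3.20e-07, edgeR); in TC71 it was at 0 in vehicle and at least 2.31-fold higher with doxycycline, on 0.18 to 0.38 CPM. PTK2B (PYK2), the FAK paralog, showed the line difference of PTK2 more strongly, with 0.34 ± 0.12 in EW8 (adjusted p = 0.0249, edgeR; called under 18 of 21 alternatives) and 1.96 ± 0.11 in TC71 (adjusted p = 7.67e-11, edgeR). Of the zyxin relatives, LPP rose by 2.41 and 2.26, LIMD1 by 0.57 and 0.59 and WTIP by 0.48 and 0.92 in EW8 and TC71, TRIP6 rose by 0.28 in TC71 (0.18 without the library that stood apart) and lay at 0.09 in EW8 (adjusted p = 0.352, edgeR), and AJUBA fell in both lines, by 0.91 and 0.61 on the log2 scale.

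TLN2, the second talin, rose by 2.08 ± 0.13 in EW8, from 2.12 to 2.61 CPM to 8.47 to 10.4 CPM, and by 1.34 ± 0.11 in TC71 (adjusted p = 1.43e-10 and 5.28e-09, edgeR), well beyond TLN1 but from a lower level. CTNNA1 (alpha-catenin), the vinculin relative of cell-cell junctions, rose by 0.99 in both lines, while CTNNA2 and CTNNA3 were not tested. ACTN2, the muscle alpha-actinin, rose in EW8 (0.64 ± 0.10, adjusted p = 2.30e-05, edgeR) and fell in TC71 (-0.60 ± 0.09, adjusted p = 3.49e-05, edgeR), and ACTN3 was not tested. PARVB, at 0.41 to 0.79 CPM in EW8, lay at 34.2 to 38.1 CPM in TC71 with vehicle and rose there by 0.70 ± 0.11 (adjusted p = 2.73e-05, edgeR), and PARVG was at or under the floor in vehicle and at least 2.49-fold and 4.31-fold higher with doxycycline in EW8 and TC71. Among the tensins, TNS3 rose by 0.68 in EW8 (adjusted p = 0.0368, edgeR) and was at 0 in vehicle and at least 4.65-fold higher in TC71, TNS2 fell in EW8, at -0.54 log2 and under 17 of 21 alternatives, and lay at -0.01 in TC71, and TNS4 rose by 1.06 in EW8 and lay at -0.03 in TC71 (adjusted p = 0.981, edgeR).

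Of the 18 actin-side adaptors around the plaque genes, 16 were higher and 0 lower in EW8, 7 with the fold limit, and 14 higher and 0 lower in TC71, 10 with the fold limit (background 21.9% higher in EW8 and 25.1% in TC71); without the vehicle library that stood apart, 13 were higher in TC71. Their median log2 fold change was 0.79 in EW8 and 1.22 in TC71, or 0.92 in TC71 with SORBS2 held at its bound. FHL2, a LIM protein of stress fibres that also binds transcription factors, rose from 7.90 to 10.96 CPM to 286 to 302 CPM in EW8 (log2 4.99 ± 0.09, adjusted p = 1.30e-17, edgeR) and from 1.26 to 1.46 CPM to 81.2 to 86.1 CPM in TC71 (log2 5.93 ± 0.11, adjusted p = 8.72e-18, edgeR). SORBS2 rose by 4.89 ± 0.56 in EW8 and was at least 1.55-fold higher in TC71. The actin-binding adaptors PDLIM1 (2.72 and 1.48) and PALLD (1.59 and 1.96) rose in both lines. SYNPO (synaptopodin) rose by 2.68 ± 0.24 in EW8 and lay at 0.51 in TC71 (adjusted p = 0.082, edgeR), or at 0.11 without the vehicle library that stood apart (adjusted p = 0.505, edgeR). FBLIM1 (migfilin), a filamin-binding partner of kindlin, rose by 0.80 in EW8 and 2.68 in TC71.

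Of 12 integrin activators and ILK partners, 7 were higher and 3 lower in EW8, and 10 higher and 1 lower in TC71, with medians of 0.63 and 0.90 (background 21.9% higher and 22% lower in EW8, 25.1% and 20.4% in TC71). FERMT3 (kindlin-3, the kindlin of blood cells) rose by 3.04 ± 0.19 in EW8, to 7.54 to 7.65 CPM, and by 2.03 ± 0.17 in TC71 (adjusted p = 2.32e-10 and 9.20e-09, edgeR). KANK1, which binds talin at the plaque rim, rose by 2.13 and 2.78, and the PINCH gene LIMS2 by 1.31 and 2.15. Relatives of these genes went both ways. Of the other kindlin genes, FERMT2 rose by 0.88 in EW8 and 1.25 in TC71. FERMT1 lay at 0.16 in EW8 (adjusted p = 0.101, edgeR) and rose by 0.33 in TC71. KANK2, the relative of KANK1, was lower in EW8 and TC71, at -0.83 and -0.34. The other PINCH gene, LIMS1, lay at -0.21 in EW8 (called under 15 of 21 alternatives) and at 0.34 in TC71. APBB1IP (RIAM), which brings talin to integrins through RAP1, was at or under the floor in vehicle and at least 4.16-fold higher in EW8 and 42.7-fold higher in TC71, on 0.50 to 0.55 and 3.59 to 5.31 CPM. Of 14 tested FAK and paxillin partners, 6 were higher and 2 lower in EW8 with a median of 0.12, and 9 higher and 1 lower in TC71 with a median of 0.57, against the same background shares; without the vehicle library that stood apart, 8 were higher in TC71 and the median was 0.41. NEDD9, a docking protein of the CAS family, rose by 3.00 ± 0.30 and 4.50 ± 0.35 (adjusted p = 1.55e-07 and 5.28e-09, edgeR). Its relative BCAR1 (p130Cas) rose by 0.58 in EW8 and 1.26 in TC71, and the paxillin-binding GIT2 by 0.64 and 1.16. The CAS-family gene EFS was lower in both lines, at -0.935 in EW8 and -0.58 in TC71. Of SRF and its cofactors, 3 were tested, of which 2 rose in each line; MRTFA rose by 0.55 and by 1.01, the latter only just past the fold limit, a call that 6 of 6 alternatives of scaling, filter and tool lost.

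**Figure D4:**
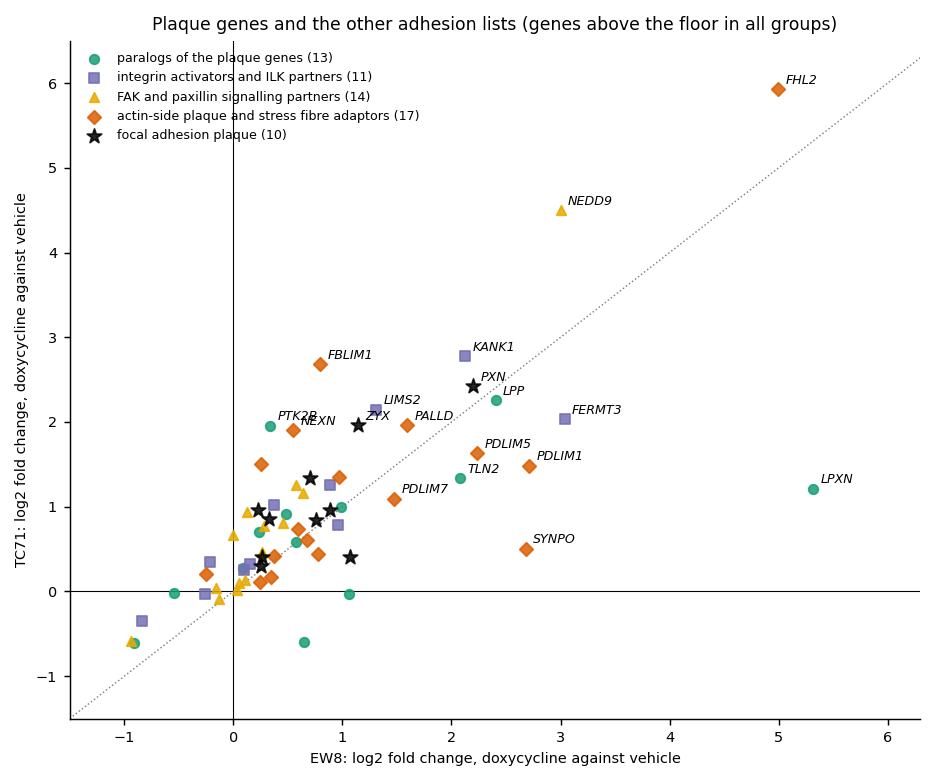
Log2 fold change with doxycycline in EW8 (x axis) against TC71 (y axis) for the 10 plaque genes (stars) and the tested genes of the 4 other adhesion lists, leaving out 5 genes at or under the floor in a group; the dotted line marks equal responses. FHL2 lies highest at 4.99 and 5.93, LPXN far to the right at 5.32 and 1.21, and PXN and ZYX lead the plaque genes apart from it.

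VCL was used to look for genes with a like course over the 12 libraries, taking the root mean square difference of log2 CPM after each gene's own mean was removed. The nearest tested genes outside the plaque list were MYL6 (a non-muscle myosin light chain) at 0.054, NTNG1 and PSMD2 at 0.080, and IQGAP1 (an actin-binding scaffold) and ENSG00000216285 at 0.099. MYL6 changed by 0.82 in EW8 and 0.96 in TC71, where VCL changed by 0.89 and 0.96. Among the plaque genes ACTN1 was nearest to VCL at 0.20, placed 147 of the 21013 genes, PARVA followed at 0.33 and TLN1 at 0.45, and TNS1 was farthest at 1.04. The closest pairs were VCL with ACTN1 and ACTN4 with PTK2 (0.21), and the 12 libraries behind these values share 2 lines and 2 treatments.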

How the data were processed

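Poly(A) RNA was sequenced as stranded, paired 100-base reads. The authors used STAR and hg38 for alignment, and the raw counts per gene that they deposited came from featureCounts 2.0.1 with GENCODE 29; mates were counted singly, strand was not used, and reads mapping to several places or touching several genes were dropped. Each read pair therefore gives up to 2 counts, and genes that share exons with a neighbour are undercounted. Exon length was deposited with the counts, holds base pairs and covers all annotated exons of a gene. The total was 42860665 to 60853649 counts in the 12 libraries, which sets the precision of low genes. Symbols were matched by gene ID for 99.2% of the genes.

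Groups followed the labels. Counts were fitted with edgeR 4.0.16 (R 4.3.3) in a 4-group model of all 12 libraries with TMM scaling and filterByExpr, by the quasi-likelihood test, two-sided, with Benjamini-Hochberg adjustment over 21013 genes. Calls used an adjusted p under 0.05, also with an absolute log2 fold change over 1. The study's own tool, DESeq2 (1.42.0), was an alternative, as were other scalings, filters, halved counts, a replicate block and each left-out library, 21 in all. SE is the log2 fold change over the root of the F statistic; CI is 95%. The floor was 6 counts (3 read pairs) a library; a bound sets the other group against it. On simulated counts of the EW8 comparison (20290 genes), edgeR called 66.7% of genes changed 1.5-fold and also 66.7% of those changed 2-fold. It called 92% of those changed 4-fold and 62.5% of those changed 0.5-fold.

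The named genes were the 10 members, all their paralogs, from each other list at most 4 per line with the greatest absolute log2 fold change among those called with the fold limit, JUN and FOS, and the 5 genes nearest to VCL. KANK2, LIMS1 and EFS were added later as relatives of KANK1, LIMS2 and NEDD9, and FERMT1 and FERMT2 as relatives of FERMT3. Members and lists were chosen with earlier results of these data known. The share of calls among genes of at least 10 CPM, the level per unshared kb and the alternatives for single genes of the other lists were added after seeing the data.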

Additional observations from a re-analysis of the deposited data

Results flagged for a closer look

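The responses of the lines to doxycycline differed by the test of the interaction (edgeR, adjusted over all tested genes) in 4 plaque genes, each with the larger rise in TC71: ZYX by 0.82, TNS1 by 0.73, ACTN1 by 0.64 and PTK2 by 0.53 on the log2 scale. The first vehicle library of TC71, which stood apart, had the lowest ZYX and ACTN1 of its group, and without it the differences were 0.55, 0.65, 0.40 and 0.39.

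Among the named relatives and partners, the rise was larger in TC71 for FBLIM1 (difference 1.88), PTK2B (1.62), NEDD9 (1.5), FHL2 (0.93), LIMS2 (0.84), BCAR1 (0.69), GIT2 (0.52), MRTFA (0.45), PALLD (0.37) and FERMT2 (0.37). LIMS1 (0.55) fell in EW8 and rose in TC71, and KANK2 (0.49) fell less in TC71. The difference was negative for LPXN (-4.10), SYNPO (-2.17), PDLIM1 (-1.23), FERMT3 (-1.01) and TLN2 (-0.74), and for ACTN2 (-1.24), which rose in EW8 and fell in TC71. Genes at or under the floor in a group are left out here, because their fitted difference depends on the prior count. Some of these calls were lost under alternatives: that of PALLD held under 8 of 20, LIMS2 under 9, NEDD9 under 11, MRTFA under 15, FERMT2 under 16 and GIT2 under 17. Without the first vehicle library of TC71 the difference was 0.13 for PALLD (adjusted p = 0.313, edgeR), 1.201 for NEDD9 (adjusted p = 0.0565, edgeR), 0.46 for BCAR1, 0.30 for MRTFA and -2.62 for SYNPO. Single libraries in groups of 3 were not tested as outliers.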

How the results depend on the processing

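Of the 990 member fold changes recomputed under alternatives, 950 kept their direction and their side of the threshold, and the counts of members called stayed within 1.5 times of the reported ones in 400 of 400 values. In EW8, PARVA lost its call with library size alone (0.20), with no filter (0.25) and with the replicate block within each line (0.27), and over the left-out libraries ranged from 0.17 to 0.39; TNS1 lost its call with library size alone (0.17). The differences between the responses of TLN1, VCL and ACTN4, which passed no test, turned from 0.047, 0.072 and 0.093 to -0.060, -0.035 and -0.014 with at least 10 counts in every library and to -0.053, -0.028 and -0.007 with counts halved; the cause was not tested. Over left-out libraries they ranged from -0.074 to 0.087, -0.098 to 0.098 and -0.067 to 0.16, and that of PARVA from -0.028 to 0.24. The PXN difference passed without the third doxycycline library of TC71 (0.27, adjusted p = 0.0292, edgeR) and fell to 0.069 without the first vehicle library. ACTN1 under vehicle ranged from -0.22 to 0.042 over left-out libraries and was called with library size alone (-0.19) and no filter (-0.18). ILK ranged from -0.075 to 0.78 in TC71 and from -0.34 to 0.52 between the lines under doxycycline. Without the third doxycycline library of TC71, the TNS1 change in TC71 reached 1.01 and 4 members passed the fold limit. In the main fit 3 did, with a background of 12.3%. Without the first vehicle library of TC71, ZYX was at -0.98 between the lines under vehicle and 2 members were lower by the fold limit. In the main fit 3 were, as were 3974 of the 21013 tested genes. The call of MRTFA past the fold limit was lost with 6 of 6 alternatives, and 4 paralogs rather than 7 passed it with at least 10 counts in every library. Per unshared kb, the mean level over 12 libraries was 39.1 for VCL, 159 for ACTN4, 66.8 for PXN and 0.421 CPM for ILK.

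Same-numbered libraries did not deviate together across genes (correlations of -0.022 to 0.018). Low-count genes weigh as much as well-measured ones in these correlations, so they cannot decide whether the numbers pair the samples. With the replicate block 9 members were higher in each line. With the block within each line, 8 were higher in EW8 and 9 in TC71. PARVA failed in EW8 under that block (adjusted p = 0.0524, edgeR). With the replicate block the PXN difference of 0.22 passed (adjusted p = 0.0259, edgeR), and ACTN1 under vehicle was called at -0.18.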
